A study of Mus musculus with 9 samples.

Results

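The genes described here are the 3 superoxide dismutases Sod1, Sod2 and Sod3, the glutathione peroxidases Gpx1, Gpx3 and Gpx4, the peroxiredoxins Prdx3 and Prdx4, catalase (Cat) and thioredoxin (Txn1). They were chosen by gene name and number 10 of the 24537 gene names in the larger of the 2 deposited count tables. The study asked which secreted factors of skeletal muscle change in heart failure with muscle wasting. RNA sequencing covered 9 libraries in 3 groups of 3: heart of sham-operated mice, quadriceps of sham-operated mice, and quadriceps of mice with transverse aortic constriction (TAC). TAC narrows the aorta with a ligature tied around a 27 gauge needle so that the left ventricle pumps against raised pressure, and sham mice had no such constriction. All groups were male wild-type mice, C57Bl6 by the labels and C57Bl/6JCrl by the study's methods, which were 8 weeks old at surgery by the labels and gave tissue 12 weeks later. The labels mark the TAC samples as cachexia, and they name quadriceps as the source of RNA in the extraction text of every sample, heart included.

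Superoxide dismutases turn superoxide into hydrogen peroxide. Sod1 does so in the cytosol with copper and zinc, Sod2 in the mitochondrial matrix with manganese, and Sod3 outside the cell, where it binds to the matrix around vessels and fibres. Catalase, glutathione peroxidases and peroxiredoxins then remove the peroxide, and the cytosolic thioredoxin returns some oxidized peroxiredoxins to their working form. Contracting muscle and the beating heart both produce superoxide and peroxide, and this enzyme chain is known for limiting oxidative damage in them.

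Gpx1, Gpx3 and Gpx4 carry selenocysteine at the active site, which the ribosome inserts at a UGA codon that otherwise ends translation. The coding stretches around that codon are shown because Gpx3, the secreted enzyme, had the largest rise of the 5 genes measured after TAC, and because they set these 3 selenium-dependent genes apart from the other members. Capitals mark the codon as it stands in the DNA, with 12 bases on each side, from the GENCODE vM21 transcripts on GRCm38 (mm10, the build the authors aligned to), all on the plus strand.
Gpx1, codon 47, chr9:108339451-108339453: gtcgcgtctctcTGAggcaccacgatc
Gpx3, codon 73, chr11:54907256-54907258: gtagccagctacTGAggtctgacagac
Gpx4, codon 73, chr10:80054737-80054739: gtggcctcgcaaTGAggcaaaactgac
Codons are counted from the start codon of each transcript.

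Both tables gave counts per RefSeq transcript. The heart and quadriceps table listed all 10 genes with 16 transcripts among 35745, and its libraries held 23383452 to 38382751 counts. The TAC table listed 587 genes with 1 transcript each, which the authors had limited to genes annotated as extracellular, and it held 5 of the 10 genes: Sod1, Sod3, Gpx3, Prdx4 and Cat. Sod2, Gpx1, Gpx4, Prdx3 and Txn1 were not analysed here in TAC quadriceps. Counts of the listed genes came to 689630 to 1006148 in the sham and 1166978 to 1326011 in the TAC libraries, so that every TAC library was deeper, and depth and surgery cannot be told apart. The third TAC column carries the number 4, which no sample title has, and it is called TAC 4 here. Summed cardiac muscle markers ran from 941972 to 1029840 normalized counts in heart against 265 to 342 in quadriceps, and fast skeletal muscle markers from 5674 to 13321 against 1762250 to 2603780, so the tissue labels matched their markers. Normalized counts are counts scaled by the trimmed mean of M-values (TMM), separately for each table. For the TAC comparison TMM thus rests on the 586 extracellular-annotated genes tested, and rises and falls with TMM are relative to these genes, not to all transcripts. The listed genes held 917422 of 32651317 counts in sham quadriceps library 1 and 1166978 of 48614494 in TAC library 1. The sources used here state at least 3 biological replicates but tie no library to a mouse, so p-values measure the spread between these libraries.

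In quadriceps, the secreted peroxidase Gpx3 rose after TAC and the extracellular dismutase Sod3 fell. Sod1 rose and the peroxiredoxin of the endoplasmic reticulum Prdx4 fell in the same fit, with calls that were lost in 12 and 5 of 18 alternatives, and Cat was not called. Calls were made at an adjusted p below 0.05, from the quasi-likelihood test of edgeR with p-values adjusted by Benjamini-Hochberg across the 586 genes tested. Of the 5 genes tested, 2 were called higher and 2 lower, against 17.7% of all genes tested called higher, 11.9% lower and 29.7% in either direction. The two-sided exact permutation p of each of the 5 genes was 0.1, the smallest that 3 against 3 allows, also for Cat, which was not called.

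Sod1 (NM_011434, chr16:90220754-90226329, plus strand, 5 exons) had normalized counts of 2115, 2515 and 2403 in sham libraries 1, 2 and 3. In TAC libraries 1, 2 and 4 it had 5056, 3429 and 4410. Every TAC library was above every sham library, with TAC 2 the lowest of its group. The means were 2345 ± 206 and 4298 ± 819 (SD, n = 3 each), a log2 fold change of 0.87 (SE 0.21) with adjusted p = 0.0189 in edgeR, or 1.83-fold higher. The call was lost when any library other than TAC 2 was left out. Of all 50-base windows of the Sod1 transcript, 23.1% also occur in the pseudogene Gm8566, and the gene overlaps Scaf4 on the opposite strand, with the strand setting of the counting not given in the sources used here.

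Sod3 (NM_011435, chr5:52363791-52371418, plus strand, 2 exons) is the dismutase that acts outside the cell. It had 250, 206 and 227 normalized counts after sham surgery, against 82.3, 99.8 and 102 after TAC. The highest TAC value lay far under the lowest sham value. The mean fell from 228 ± 21.7 to 94.8 ± 10.8 (SD, n = 3 each), with a log2 fold change of -1.26 (SE 0.23) and adjusted p = 0.00813 in edgeR, or 2.40-fold lower. Sod3 stayed called lower in all 18 alternatives, with adjusted p between 0.000115 and 0.0364, and none of its 50-base windows occurs in another annotated gene.

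Fibroblast and leukocyte markers moved in the same direction as Sod3. Of 7 fibroblast markers, 6 were listed and 5 were called lower, and their summed normalized counts ranged from 10413 to 13773 in the sham and from 6418 to 9613 in the TAC libraries. Lyz2, the 1 listed macrophage and leukocyte marker of 6, was called lower, at 485 to 705 in the sham and 195 to 301 in the TAC libraries. No listed marker was at 0 in a whole group, and no smooth muscle or pericyte marker was listed. The part of these cells in the fall of Sod3 was not tested. In bulk tissue, fewer cells of a type and less RNA per cell cannot be told apart.

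Gpx3 (chr11:54902453-54910377, plus strand, 5 exons) encodes the glutathione peroxidase of plasma and extracellular fluid, and the TAC table listed its transcript NM_001329860. Its normalized counts were 3143, 2792 and 3041 in the sham libraries. They were 9465, 10949 and 9528 in the TAC libraries. Every TAC library was far above the highest sham library. The mean rose from 2992 ± 181 to 9981 ± 839 (SD, n = 3 each), a log2 fold change of 1.74 (SE 0.19) with adjusted p = 0.00144 in edgeR, or 3.34-fold higher. This was the 18th largest log2 fold change of the 586 genes, and Gpx3 stayed called higher in all 18 alternatives.

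Prdx4 (chrX:155323918-155340754, minus strand, 7 exons) is the peroxiredoxin of the endoplasmic reticulum and can be secreted. Its listed transcript NM_001313711 had normalized counts of 116, 112 and 104 after sham surgery, against 55.2, 64.6 and 40.1 after TAC. The groups did not overlap, and TAC 4 was the lowest. The mean fell from 111 ± 5.97 to 53.3 ± 12.4 (SD, n = 3 each), a log2 fold change of -1.06 (SE 0.25) with adjusted p = 0.0189 in edgeR, or 2.08-fold lower. The call was lost when any of the 3 sham libraries was left out, with adjusted p up to 0.0713, and no alternative turned its direction.

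Cat (NM_009804, chr2:103453849-103485160, minus strand, 13 exons) encodes the peroxide-splitting enzyme of peroxisomes. Its normalized counts were 1545, 1459 and 1582 in the sham and 2692, 1644 and 3882 in the TAC libraries. TAC 2 lay just above the sham range and TAC 4 far above it. The means were 1529 ± 63.2 and 2739 ± 1120 (SD, n = 3 each), and the log2 fold change of 0.84 (SE 0.30) missed the threshold with adjusted p = 0.0650 in edgeR. Cat was called higher in 3 of 18 alternatives: without TAC 2 (1.10, adjusted p = 0.00972 in edgeR), with DESeq2 (0.86, adjusted p = 0.0427) and in the edgeR fit of all 9 libraries (0.81, adjusted p = 0.0332). Without TAC 4 its log2 fold change was 0.43 (adjusted p = 0.252 in edgeR). Erythrocytes are rich in catalase, and the 3 haemoglobin genes listed of 6 erythrocyte markers summed to 1658 to 1973 normalized counts in the sham and 492 to 2731 in the TAC libraries. The part of blood in the values of Cat was not tested.

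**Figure D1:**
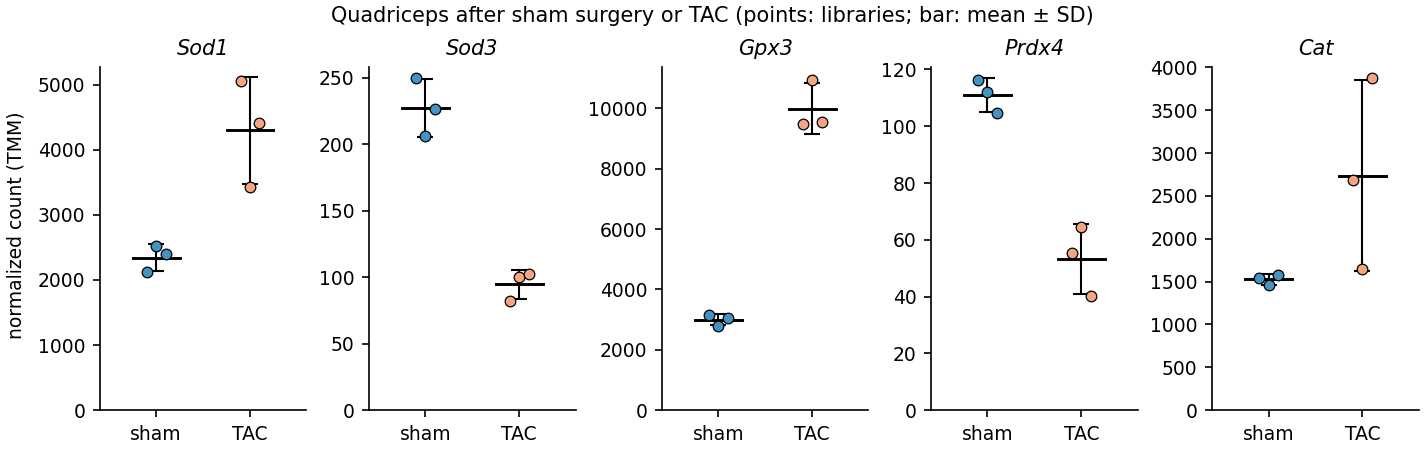
TMM-normalized counts (vertical axes, from 0) of the 5 genes in 3 sham and 3 TAC quadriceps libraries, with 1 panel per gene. Points are libraries, in the order 1, 2, 3 for sham and 1, 2, 4 for TAC, and bars are mean ± SD. Gpx3 went from 3143, the highest sham value, to 9465, the lowest TAC value, whereas TAC 2 of Cat at 1644 lay close to the sham libraries.

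Library totals, the other scaling, were derived from the RPKM columns used, which cover 5 of the 6 libraries. The RPKM column numbered 4 was not used, so both scalings were set side by side without TAC 4. On these 5 libraries the median log2 fold change of all 586 genes was -0.08 with TMM and -0.63 with library totals. Gpx3 was called higher at 1.68 with TMM (adjusted p = 0.00331) and 1.12 with library totals (adjusted p = 0.0108) in edgeR. Sod3 was called lower at -1.41 (adjusted p = 0.0108) and -1.98 (adjusted p = 0.00544), as was Prdx4 at -0.98 (adjusted p = 0.0281) and -1.54 (adjusted p = 0.0110). Sod1 was called under neither, at 0.78 (adjusted p = 0.0543) and 0.22 (adjusted p = 0.442). Cat was at 0.43 (adjusted p = 0.252) with TMM and turned to -0.14 (adjusted p = 0.696) with library totals, neither called in edgeR. Relative to the median of all genes the values with TMM and with library totals were close, at 0.86 and 0.85 for Sod1, 1.76 and 1.75 for Gpx3, -1.33 and -1.35 for Sod3, -0.90 and -0.91 for Prdx4, and 0.51 and 0.49 for Cat. A change of scaling moves all genes of a library alike, so this closeness follows from the arithmetic and adds no support.

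Ratios between 2 genes of a library need no scaling, and they were added after the values had been seen. The Gpx3 to Sod3 ratio, with counts per transcript length, was 16.0, 17.2 and 17.0 after sham surgery, against 146, 139 and 118 after TAC. The means were 16.7 ± 0.649 and 134 ± 14.3 (SD, n = 3 each), or 4.06 and 7.06 as mean log2 ratios (two-sided exact permutation p = 0.1). The ratio was thus higher in every TAC library than in every sham library, whatever the scaling. Its level rests on the lengths used, with 2041 bases for Sod3 against 3738 in its GENCODE transcript. The same lengths were used for every library. Gpx3 and Sod3 had the largest rise and the largest fall of the genes measured, so their ratio adds no support to their fits. Between the 2 dismutases, the log2 ratio of Sod3 to Sod1 per length went from -5.04 ± 0.265 to -7.16 ± 0.422, with no overlap between groups. The log2 ratio of Cat to Sod1 per length was -2.60 ± 0.167 in the sham and -2.70 ± 0.468 in the TAC libraries, and these overlapped.

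Of the 107 other genes of 8 lists around the same chemistry, the TAC table listed and tested 9, with 3 called higher and 1 lower. Of all genes tested, 17.7% were called higher and 11.9% lower. Selenos, a selenoprotein of the endoplasmic reticulum, rose from 365 ± 15.6 to 958 ± 274 normalized counts (log2 fold change 1.39, adjusted p = 0.00818 in edgeR). Xdh, the xanthine oxidoreductase that can make superoxide and peroxide, rose from 437 ± 65.8 to 902 ± 379 (1.04, adjusted p = 0.0425 in edgeR). Ccs, the chaperone that loads copper into Sod1, was the remaining gene called higher, at 94.3 ± 25.4 and 176 ± 29.8 (0.89, adjusted p = 0.0451 in edgeR), and it is named after its values were seen. Loxl2, a copper-dependent lysyl oxidase that releases peroxide, fell from 131 ± 37.9 to 45.7 ± 10.1 (-1.52, adjusted p = 0.0116 in edgeR). The calls of Xdh and Ccs were both lost when any library other than TAC 2 was left out (adjusted p up to 0.152 and 0.17 in edgeR), and that of Loxl2 without sham library 1 (-1.36, adjusted p = 0.0503 in edgeR). Selenos stayed called in each of these 6 fits, and with library totals on 5 libraries none of the 3 higher calls held. Endothelial cells are a known site of Xdh, and the 2 endothelial markers listed of 5, Pecam1 and Vwf, were both called higher, at a summed 917 to 1048 in the sham and 1504 to 1589 in the TAC libraries. These marker calls and sums are with TMM only. With library totals on 5 libraries, 20 of all genes tested were called higher, against 104 with TMM. The part of endothelial cells in the rise of Xdh, Sod1 or Gpx3 was not tested. The 3 adipocyte markers listed of 5 summed to 315 to 2302 in the sham and 415 to 2860 in the TAC libraries, with none called.

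The second comparison set sham quadriceps against sham heart, which shows where each enzyme is expressed without pressure overload. It shares its 3 quadriceps libraries with the TAC comparison. Sod3 was 4.44-fold lower in quadriceps than in heart, Sod2 and Cat were lower by smaller amounts, and these 3 differences kept their direction under both scalings. With TMM the other dismutase Sod1 and the peroxide-removing genes Gpx1, Gpx3, Prdx3 and Txn1 were higher in quadriceps, a direction that turned with library totals. Of the 10 genes, 5 were called higher and 3 lower in quadriceps, against 32.2% of all 24280 transcripts tested called higher, 34.4% lower and 66.6% in either direction, so the share called was near the background.

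Among the dismutases, Sod1 had normalized counts of 2420, 2506 and 2526 in heart libraries 1, 2 and 3. It had 3344, 3636 and 3452 in quadriceps libraries 1, 2 and 3. The groups did not overlap, and the log2 difference, quadriceps minus heart, was 0.49 (SE 0.09) with adjusted p = 0.00113 in edgeR and -0.27 with library totals (adjusted p = 0.0182 in edgeR). Sod2 (NM_013671, chr17:13006846-13040063, plus strand, 5 exons), the mitochondrial dismutase, had 13473, 12230 and 13110 in heart. In quadriceps it had 8557, 8767 and 7197. It was lower in every quadriceps library, with a log2 difference of -0.66 (SE 0.12) and adjusted p = 0.000795 in edgeR, and -1.41 with library totals.

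Sod3 had normalized counts of 1680, 1416 and 1437 in heart. In quadriceps it had 394, 298 and 326. No quadriceps library came near the heart range, and the log2 difference was -2.15 (SE 0.13) with adjusted p = 8.96e-07 in edgeR and -2.89 with library totals. It stayed called in all 18 alternatives. All 5 endothelial markers were also called lower in quadriceps, at a summed 15996 to 17210 normalized counts in heart and 4755 to 5688 in quadriceps. Of the 6 smooth muscle and pericyte markers, 3 were called lower and 1 higher (14721 to 15753 and 10702 to 15186), and of the 7 fibroblast markers 3 were called lower (22450 to 25781 and 15649 to 22551). Of the 6 macrophage and leukocyte markers, 4 were called lower (2358 to 2499 and 1021 to 1669). No marker was at 0 in a whole group, and the part of these cells in the lower Sod3 was not tested.

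The make-up of the dismutases differed between the tissues without any scaling. Per transcript length, Sod1 made up 46.4%, 50.1% and 48.8% of the 3 dismutases' summed counts in heart libraries 1, 2 and 3, against 68.2%, 69.9% and 72.5% for quadriceps. Sod2 made up 42.3 ± 1.21% in heart and 27.7 ± 2.04% in quadriceps, and Sod3 9.24 ± 0.768% and 2.16 ± 0.364% (SD, n = 3 each). None of the 3 shares overlapped between tissues (two-sided exact permutation p = 0.1 each). By the lengths used, the heart libraries thus held Sod1 and Sod2 at near-equal levels per length, with a log2 ratio of Sod2 to Sod1 of -0.19 ± 0.0952, against -1.35 ± 0.152 in quadriceps. That near-equality rests on 3817 bases for Sod2, whose GENCODE transcript has 5861. The shares of Sod3 rest on 2041 bases, against 3738 in its GENCODE transcript. The 23.1% of Sod1 windows shared with a pseudogene also bear on these levels.

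**Figure D2:**
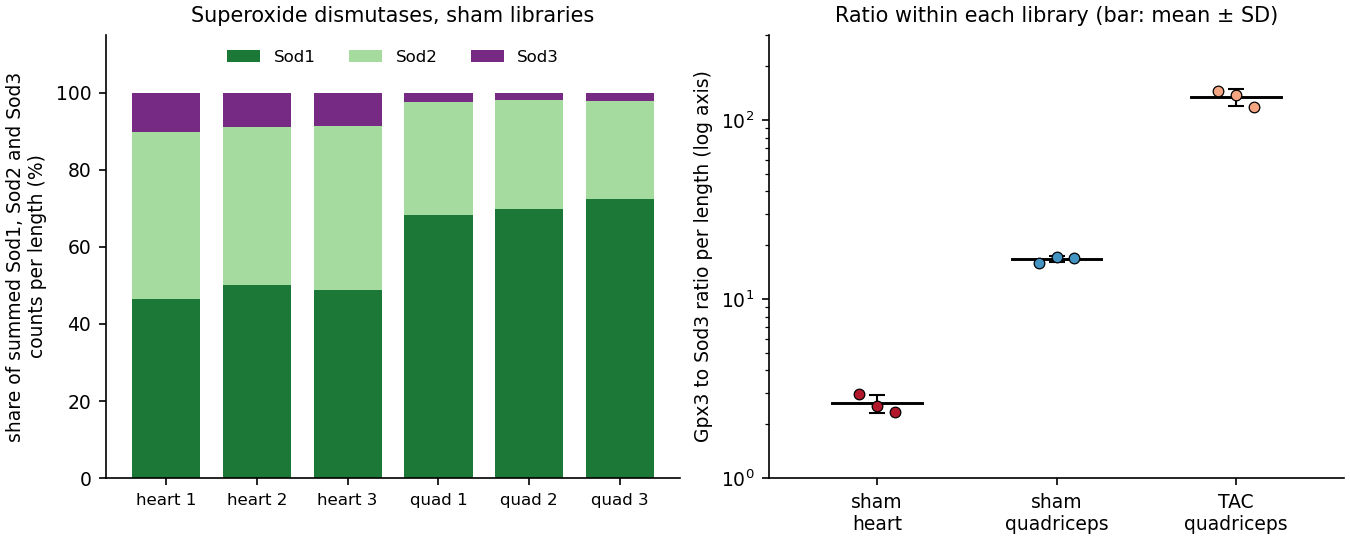
Left: share (%) of Sod1, Sod2 and Sod3 in their summed counts per transcript length in each of 3 sham heart and 3 sham quadriceps (quad) libraries. Right: ratio of Gpx3 to Sod3 counts per length on a log axis in all 9 libraries, with points for libraries and bars for mean ± SD. Sod3 took 9.24% on average in heart and 2.16% in quadriceps, and the ratio ran from 2.35 in the lowest heart library to 146 in the highest TAC library.

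Catalase was lower in quadriceps than in heart. Its normalized counts were 3152, 3213 and 3289 in heart and 2443, 2110 and 2273 in quadriceps, with a log2 difference of -0.50 (SE 0.10) and adjusted p = 0.00135 in edgeR, and -1.25 with library totals. Erythrocyte markers were lower as well: 5 of 6 were called, and their sum was 8451 to 10189 in heart and 2466 to 3034 in quadriceps. The part of blood in the difference of Cat was not tested. The call of Cat was also lost, at -0.30 with adjusted p = 0.343 in edgeR, in the fit of all 9 libraries, which is limited to the genes in both tables.

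Of the glutathione peroxidases, Gpx1 (NM_008160, chr9:108338903-108340343, plus strand, 2 exons), the form of cytosol and mitochondria, had normalized counts of 538, 472 and 562 in heart and 971, 787 and 705 in quadriceps. The log2 difference was 0.65 (SE 0.14) with adjusted p = 0.00213 in edgeR, and -0.09 with library totals (adjusted p = 0.634 in edgeR). Gpx3 had 3918, 2840 and 2665 in heart and 4973, 4038 and 4373 in quadriceps, on its transcript NM_008161. The ranges lay close, with heart 1 just under quadriceps 2, and the log2 difference was 0.51 (SE 0.16) with adjusted p = 0.0173 in edgeR. This call was lost without heart library 2 or 3 (adjusted p = 0.0747 and 0.0739 in edgeR) and the sign turned with library totals (-0.23, adjusted p = 0.256 in edgeR). Of Gpx1 and Gpx3, the 3 remaining transcripts listed had log2 differences of 0.51, 0.66 and 0.71, all called higher with TMM. Their counts were close to those of the transcripts described, such as 5332 and 5339 for Gpx3 in heart library 1, so they add no separate support.

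Gpx4 (NM_008162, chr10:80047166-80056439, plus strand, 7 exons), the enzyme that reduces lipid peroxides in membranes, had 153, 173 and 186 in heart and 198, 165 and 186 in quadriceps. The groups overlapped, and the log2 difference of 0.10 (SE 0.13) was not called (adjusted p = 0.514 in edgeR). Of its 50-base windows, 68.9% also occur in 2 pseudogenes, mostly in Gpx4-ps2, so its counts are uncertain. Its 2 other transcripts had log2 differences of -0.33, not called, and 0.59, called higher (adjusted p = 0.0403 in edgeR).

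The mitochondrial peroxiredoxin Prdx3 (NM_007452, chr19:60864051-60874556, minus strand, 7 exons) had 3881, 3451 and 3977 in heart and 6508, 5771 and 5042 in quadriceps. It did not overlap between tissues, with a log2 difference of 0.62 (SE 0.12) and adjusted p = 0.00157 in edgeR, but -0.13 with library totals (adjusted p = 0.429 in edgeR). Prdx4, described here by NM_016764, its row with the most counts, had 142, 149 and 195 in heart and 185, 165 and 150 in quadriceps. Its groups overlapped fully, and the log2 difference of 0.05 (SE 0.16) was not called (adjusted p = 0.786 in edgeR), nor was that of its other transcript (0.05). Txn1 (NM_011660, chr4:57943373-57956411, minus strand, 5 exons), the cytosolic thioredoxin, had 468, 461 and 497 in heart and 717, 600 and 642 in quadriceps. Its log2 difference was 0.46 (SE 0.10) with adjusted p = 0.00352 in edgeR, and -0.29 with library totals (adjusted p = 0.0715 in edgeR). Other annotated genes shared 2.5% of the 50-base windows of Txn1 and 1.43% of those of Sod2, and none of those of Gpx1, Gpx3, Prdx3, Prdx4 or Cat.

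**Figure D3:**
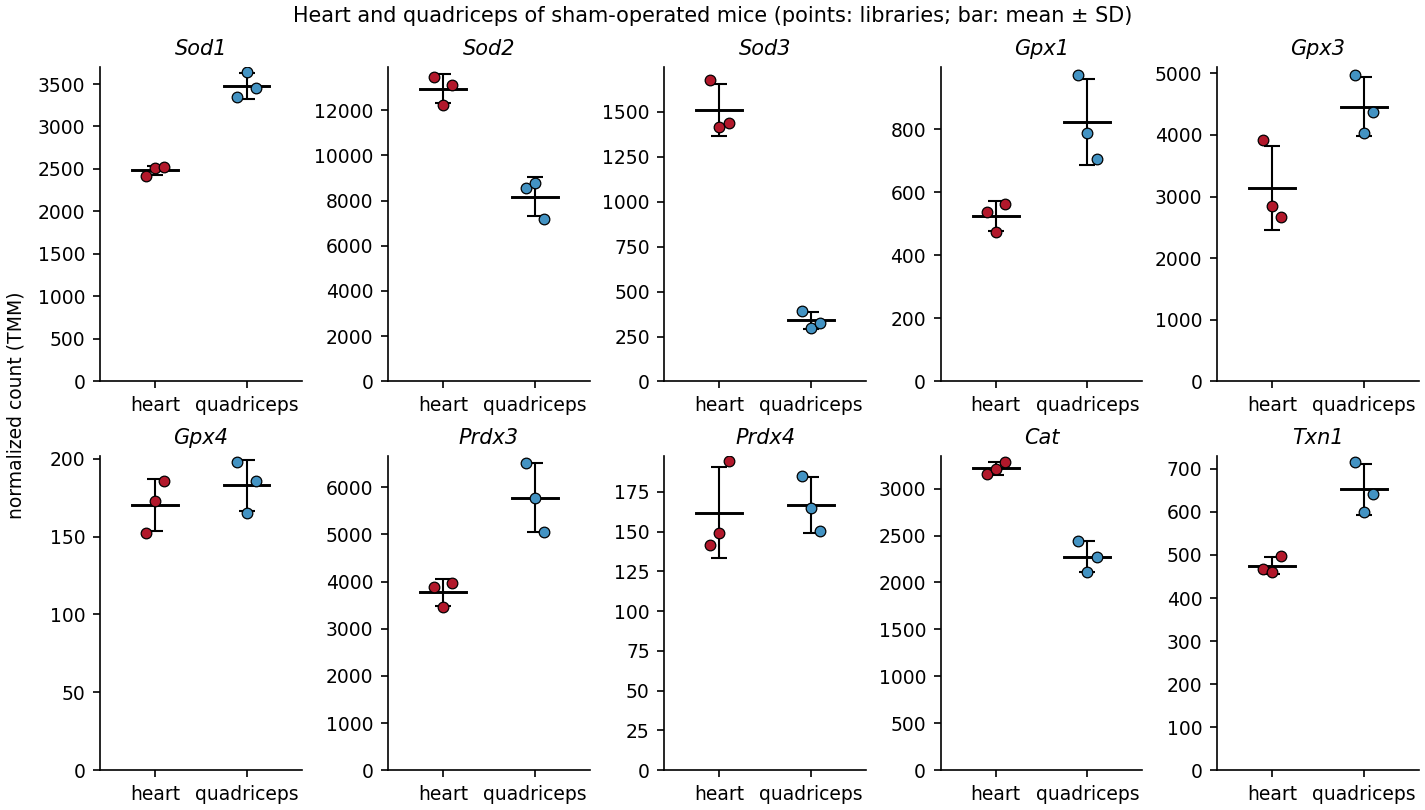
TMM-normalized counts (vertical axes, from 0) of the 10 genes in 3 sham heart and 3 sham quadriceps libraries, with 1 panel per gene. Points are libraries in the order 1, 2, 3 and bars are mean ± SD. Sod3 showed the widest gap as a ratio, from 1416 in the lowest heart library to 394 in the highest quadriceps library, and Gpx4 and Prdx4 overlapped between tissues.

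The shift between the 2 scalings exceeded every positive member difference with TMM, which ran from 0.05 to 0.65. TMM factors were 1.29 to 1.31 in heart against 0.725 to 0.833 in quadriceps, and library totals moved the median of all transcripts from -0.06 to -0.80. Relative to that median, the values were nearly the same under both, which again follows from the arithmetic: Sod1 at 0.54, Gpx3 at 0.56 and 0.57, Gpx1 at 0.71 and 0.72, Prdx3 at 0.67 and 0.68, Txn1 at 0.51 and 0.52, Gpx4 at 0.16, Prdx4 at 0.11, Cat at -0.44, Sod2 at -0.61 and Sod3 at -2.09. With library totals 0 of the 10 genes were called higher and 6 lower in edgeR, the added ones being Sod1, Gpx4 (-0.64) and Prdx4 (-0.69).

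**Figure D4:**
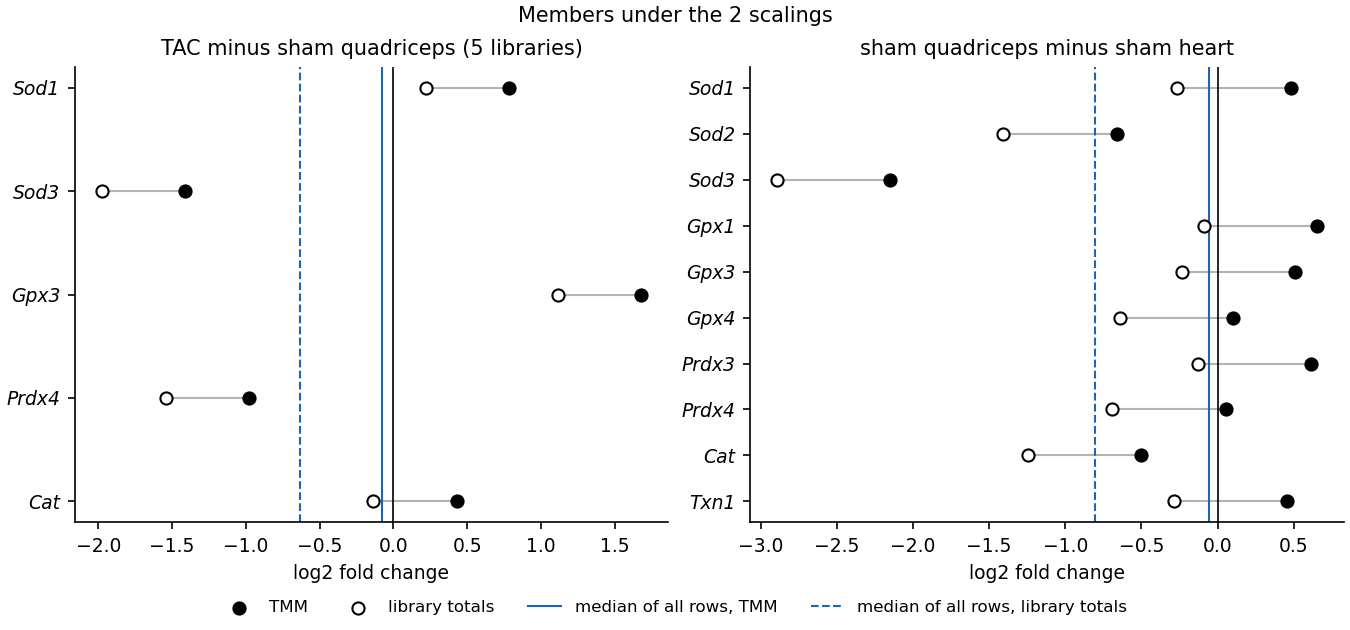
Log2 fold changes (horizontal axes) of the listed genes in both comparisons, with filled points for TMM, open points for library totals, and vertical blue lines for the median of all rows tested under each scaling (solid, TMM and dashed, library totals). The TAC panel uses the 5 libraries other than TAC 4 for both scalings. Gpx3 stayed above 0 and Sod3 and Prdx4 below it after TAC under both scalings, and Sod2, Sod3 and Cat stayed below 0 in quadriceps against heart.

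Levels between genes were set side by side as the authors' RPKM, which is per length and per library total. The order depends on the lengths used, which for all members but Sod1 are shorter than their GENCODE transcripts, with the widest gaps for Sod2 and Sod3. In heart the order was Sod1 at 144 ± 4.39, Sod2 at 126 ± 5.03, Prdx3 at 97.4 ± 6.56, Gpx3 at 76.9 ± 16.0, Cat at 47.1 ± 1.26, Sod3 at 27.5 ± 2.41, Gpx1 at 18.7 ± 1.54, Txn1 at 16.9 ± 0.665, Gpx4 at 6.66 ± 0.686 and Prdx4 at 6.17 ± 1.09 (SD, n = 3). The ranges of Prdx3 and Gpx3, of Gpx1 and Txn1, and of Gpx4 and Prdx4 overlapped. In quadriceps Sod1 led again at 119.5 ± 4.17, before Prdx3 at 89.1 ± 16.8, Gpx3 at 65.3 ± 11.7, Sod2 at 47.3 ± 6.31, Cat at 19.9 ± 2.88, Gpx1 at 17.5 ± 4.10, Txn1 at 13.9 ± 2.27, Gpx4 at 4.27 ± 0.680, Prdx4 at 3.79 ± 0.642 and Sod3 at 3.70 ± 0.816. Here Prdx3 and Gpx3 overlapped, as did Cat with Gpx1, Gpx1 with Txn1, Gpx4 with Prdx4 and Prdx4 with Sod3. Sod3 was thus 6th of 10 in heart and 10th in quadriceps by mean RPKM, at a level that did not differ beyond the spread from Prdx4. In the TAC table, the 2 TAC libraries with an RPKM column used here held Gpx3 at 125 and 142 and Sod1 at 168 and 112 RPKM, and their ranges overlapped, whereas in the sham libraries Gpx3 at 52.0 to 73.6 lay below Sod1 at 117 to 124.

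The Gpx3 to Sod3 ratio can be followed over all 9 libraries on the Gpx3 transcript that both tables list. It was 2.95, 2.54 and 2.35 in the heart libraries, with means of 2.61 ± 0.310 in heart, 16.7 ± 0.649 in sham quadriceps and 134 ± 14.3 in TAC quadriceps (SD, n = 3 each). No library of one group came into the range of another. The level of the ratio again rests on the lengths used for Gpx3 and Sod3. Sod3 contributed 1766 to 2289 counts in heart, 165 to 307 in sham quadriceps and 85 to 102 in TAC quadriceps.

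Around these enzymes, 105 of the 107 other list genes were in the heart and quadriceps table and 96 were tested, with 34 called higher and 32 lower in quadriceps (16 and 61 with library totals). With TMM, 32.2% of all transcripts tested were called higher and 34.4% lower, the background for each list below. The median log2 difference of the 96 was -0.03, against -0.06 for all transcripts. Of the remaining glutathione peroxidases, Gpx7 was called higher (0.76, adjusted p = 0.00366 in edgeR, and 0.00 with library totals) and Gpx8 lower (-1.32, adjusted p = 0.00033 in edgeR), both forms of the endoplasmic reticulum, and the other 3 did not pass the count filter. Of the 4 other peroxiredoxins, Prdx1 of the cytosol was higher (0.63, adjusted p = 0.000167 in edgeR, and -0.12 with library totals) and 2 were lower, with the larger fold in Prdx5, a form found in mitochondria (-0.51, adjusted p = 0.0016 in edgeR).

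In the thioredoxin list 9 of 18 other genes were called higher and 6 lower, against 32.2% and 34.4% of all transcripts tested. Msrb1, a selenium-dependent methionine sulfoxide reductase, had the largest rise from heart to quadriceps at 514 ± 50.6 and 2370 ± 265 normalized counts (2.21, adjusted p = 4.22e-07 in edgeR). Sesn1, a stress-induced sestrin, had the largest fall at 1747 ± 105 and 548 ± 110 (-1.67, adjusted p = 8.33e-06 in edgeR). Among 25 tested genes of glutathione synthesis, transfer and reducing power, 8 were higher and 9 lower. Nnt is the gene of the mitochondrial transhydrogenase, whose protein and activity were not measured here. Its transcript was at 18085 ± 543 in heart and 1012 ± 85.6 in quadriceps, 17.9-fold lower (-4.16, adjusted p = 7.22e-09 in edgeR). Chac1, which degrades glutathione, was at 29.1 ± 8.27 and 324 ± 246 (3.50, adjusted p = 0.000289 in edgeR), and without quadriceps library 1 its log2 difference was 2.73, still called.

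Of 13 genes of the Nrf2 pathway, the transcriptional response to oxidants, 6 were called higher and 2 lower with TMM. Over all transcripts tested the shares were 32.2% and 34.4%, and a difference of the pathway as a whole was not tested. The metallothioneins, which bind copper and zinc, went opposite ways with Mt2 higher (1.51, adjusted p = 0.000104 in edgeR) and Mt1 lower (-1.50, adjusted p = 9.34e-05 in edgeR). Of 15 tested genes of copper and selenium supply, 5 were higher and 4 lower. Selenow, a small selenoprotein abundant in muscle, was at 1150 ± 68.6 in heart and 6140 ± 449 in quadriceps (2.42, adjusted p = 9.57e-08 in edgeR). Atp7b, a copper-exporting ATPase, had 69, 73 and 13 counts in heart and 0 in each quadriceps library, at least 7.90-fold lower against a floor of 3 counts per library. Of 19 tested genes that make superoxide or peroxide, 4 were higher and 8 lower, with Lox, a collagen-crosslinking oxidase, at 67.8 ± 16.4 and 354 ± 71.7 (2.40, adjusted p = 7.8e-06 in edgeR) and Cyba, the membrane subunit of NADPH oxidases, at 176 ± 21.0 and 28.5 ± 11.05 (-2.57, adjusted p = 1.19e-05 in edgeR). Adipocyte markers were called higher in quadriceps for 5 of 5 genes, at a summed 14.7 to 53.6 in heart and 500 to 4007 normalized counts in quadriceps. Of the 4 slow skeletal muscle markers, 2 were called higher and 2 lower in quadriceps, with sums of 141767 to 149329 in heart and 17092 to 24461 in quadriceps.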

How the data were processed

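RNA was sequenced from 3 sham heart, 3 sham quadriceps and 3 TAC quadriceps samples. The authors selected poly(A) RNA, made ScriptSeq v2 libraries, sequenced single-end reads of 50 bases, and used Trim Galore for trimming, STAR for alignment to mm10 and Rsubread for counting per RefSeq transcript. The deposited counts are raw. Versions and strand and multi-mapping settings are not given in the sources used here. RPKM columns were deposited as well (each count divided by transcript length and library total), as were the authors' own edgeR fold changes and p-values, which were not used. The RPKM column numbered 4 was the 1 column of a single library not used.

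Counts were tested with edgeR 4.0.16 (quasi-likelihood, TMM) in R 4.3.3, on each table alone, keeping rows that exceeded 5 counts in 2 libraries or more. Where a gene had several transcripts, the row with the most counts was described. Alternatives used limma 3.58.1 on log2(RPKM + 0.5) and DESeq2 1.42.0, other scalings and filters, leaving out each library, and a replicate block. Depth was 23383452 to 38382751 counts per sham library and 48614494 and 48999600 in TAC libraries 1 and 2, whose totals come from the RPKM columns used. The members and gene lists were chosen with earlier results of these data known. The text names all members and, of the other list genes, the called gene with the largest fold change in each direction per list and comparison. No 2 libraries agreed within sampling noise (chi-square per degree of freedom at least 7.10). The scripts were tested on simulated counts.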

Additional observations from a re-analysis of the deposited data

How the results depend on the processing

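After TAC, Gpx3 and Sod3 kept their direction and call in all 18 alternatives. In the order members, other list genes and all genes, the TAC comparison called 2, 3 and 104 higher and 2, 1 and 70 lower, and the heart comparison 5, 34 and 7828 higher and 3, 32 and 8354 lower. The causes of the changes below were not tested unless the alternative's construction shows them.

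With library totals, which also leave out TAC 4, the TAC comparison called 1, 0 and 20 higher and 2 other genes and 180 of all genes lower, with Cat at -0.14. The heart comparison called 0, 16 and 3241 higher and 6, 61 and 15203 lower, with 2 calls in the glutathione peroxidase list, Sod1 at -0.27, Gpx1 at -0.089, Gpx3 at -0.23, Gpx4 at -0.64, Prdx3 at -0.13, Prdx4 at -0.69, Txn1 at -0.29 and Prdx1 at -0.12. The limma fits on RPKM, which also use library totals, gave much the same with pseudocounts of 0.5, 1 and 0.1. After TAC they called 1 member and 0 other genes higher, 14, 12 and 16 of all genes higher and 188, 158 and 192 lower, with 2, 0 and 2 other genes lower and Cat at -0.17, -0.17 and -0.18. Against heart they called 0 members higher and 6 lower, 15, 15 and 14 other genes higher and 61, 60 and 61 lower, 3158, 3110 and 3177 of all transcripts higher and 15149, 14834 and 15320 lower, and 2 genes of the glutathione peroxidase list. In the same order Sod1 was at -0.27, -0.27 and -0.27, Gpx1 at -0.11, -0.11 and -0.11, Gpx3 at -0.23, -0.23 and -0.23, Gpx4 at -0.59, -0.54 and -0.64, Prdx3 at -0.14, -0.14 and -0.14, Prdx4 at -0.63, -0.58 and -0.69, Txn1 at -0.29, -0.28 and -0.30, and Prdx1 at -0.12, -0.11 and -0.12.

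Whether the replicate numbers pair the libraries is not known. Deviations of same-numbered libraries correlated at -0.04 to 0.06 in the heart comparison and at 0.06 for numbers 1 and 2 after TAC, the 2 numbers shared there. With 2 libraries per group in that check, both TAC values are equal by construction. Such low correlations cannot exclude a pairing. With the number as a replicate block, 1 member, 1 other gene and 56 of all genes were called higher after TAC and 1 member lower. Those 4 libraries without a block, an alternative chosen after seeing the data, gave 1, 1 and 49 higher and 1, 0 and 39 lower. Sod1 and Prdx4 lost their calls in both, and no member's call changed under the block in the heart comparison.

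Leaving out 1 library at a time left 1 to 3 members, 1 to 3 other genes and 25 to 113 of all genes higher after TAC, and 1 to 2, 0 to 1 and 35 to 102 lower. In the heart comparison Prdx4 ranged from -0.039 to 0.20. With at least 10 counts in every library, 1 other gene was called higher after TAC and Prdx4 stood at -0.012 against heart. The fit of all 9 libraries, limited to genes in both tables, called 117 genes lower after TAC. Against heart it called 2 members, 1 other gene and 183 of all genes higher and 1, 2 and 192 lower, with 1 glutathione peroxidase, 0 genes each of the peroxiredoxin and copper lists and 3 peroxide sources called. The study's fold criteria left 1 member and 67 of all genes higher after TAC. Against heart they left 0, 6 and 1699 higher and 1, 5 and 2097 lower, with 1 dismutase, 2 thioredoxin, 4 glutathione synthesis, 2 copper and selenium, 3 source and 0 glutathione peroxidase, peroxiredoxin or Nrf2 genes. With 1 row per gene, 4744 rows were higher and 5059 lower. Sod3 and Prdx4 rest on 85 to 102 and 40 to 66 counts per TAC library.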
